A study of Mus musculus with 24 samples.

Results

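Adult mouse liver after 90 min of partial ischemia was compared with adult mouse liver after 60 min, with 3 arrays at each time, by the log2 ratio of all 26180 probe sets. The 6 arrays were chosen by their sample titles, out of 24 arrays in the series. The series used Affymetrix 3' expression arrays on liver RNA of adult mice, 12 to 14 months old, and young mice, 4 to 5 weeks old, with 3 arrays for each of sham operation and 30, 60 and 90 min of partial hepatic ischemia at either age. Partial hepatic ischemia closes the blood supply of some liver lobes, and the median and left lobes were taken. All mice, the sham group included, were operated on, and no genotype, transgene or drug is named in the labels. The titles write the times as 60/0 and 90/0, and the labels do not say what the 0 stands for. Strain and sex are not given in the sources used here. The labels count 3 mice a group, but do not tie each array to its mouse, so the p-values measure the spread between these arrays.

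Each deposited value is a ratio to the mean of the 3 adult sham arrays, which is 1 for every probe set, so the sham scaling cancels between 90 and 60 min. The ratios keep no brightness, so levels of different genes cannot be set against each other, and the tissue label cannot be checked by the level of its markers. The 19 measured hepatocyte markers had a median log2 difference of 0.08 between the times, which was -0.04 with adult 60 min replicate 3 left out and 0.18 with adult 60 min replicate 1 left out. Alb, serum albumin, lay at ratios of 0.964, 0.872 and 0.727 after 60 min and 0.973, 0.936 and 0.775 after 90 min. In bulk tissue, fewer cells of a type and less RNA per cell cannot be told apart.

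Liver lobules consist mainly of hepatocytes, with sinusoids lined by endothelial cells and patrolled by Kupffer cells, the resident macrophages. Loss of blood flow cuts oxygen and nutrients, lowers cellular ATP and disturbs protein folding, to which cells answer through heat shock factors, the unfolded protein response and early transcription factors. Kupffer cells clear particles and dying cells through scavenger receptors and complement, and are a known source of inflammatory signals when blood returns.

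For most genes the difference between 90 and 60 min was small. With limma, 2 of 26180 probe sets passed at an adjusted p under 0.05, or 0.00764%, both higher after 90 min. None of the 14351 genes with a symbol (0%) passed, and each gene named in the following had an adjusted p of 1. An unadjusted p under 0.05 was reached by 915 probe sets (3.5%), 568 higher and 347 lower after 90 min. Median-centred arrays gave 401 higher and 477 lower, and quantile normalization 64 higher and 91 lower. Without adult 90 min replicate 1 the number was 481. Among genes with a symbol, 472 (3.29%) reached it, of which 278 were higher (1.94%) and 194 lower (1.35%). The 3 arrays of each time did not overlap in 793 genes that were higher (5.53%) and in 461 that were lower (3.21%). The comparison was narrow in size: 25883 probe sets (98.9%) had a 95% interval of the log2 difference that lay within 1 log2 unit of 0, and 22122 (84.5%) one within 0.5. The median over all genes was 0.02, and 20 probe sets differed by more than 1 log2 unit, 9 higher and 11 lower.

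The 2 probe sets that passed carry predicted RefSeq accessions with no symbol in the table used. The probe set of XM_358556 had ratios of 1.06, 1.19 and 1.14 after 60 min and 2.24, 1.96 and 1.69 after 90 min, a log2 difference of 0.79 ± 0.11 (SE, n = 3 per group; limma, adjusted p = 0.0132). All 3 arrays at 90 min lay above all 3 at 60 min. The probe set of XM_975522 differed from it by at most 0.0236 log2 units on any of the 24 arrays, so the pair counts as 1 measurement. Both lost the call without any 1 of the 6 arrays except adult 90 min replicate 3, without which 3 probe sets passed.

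**Figure D1:**
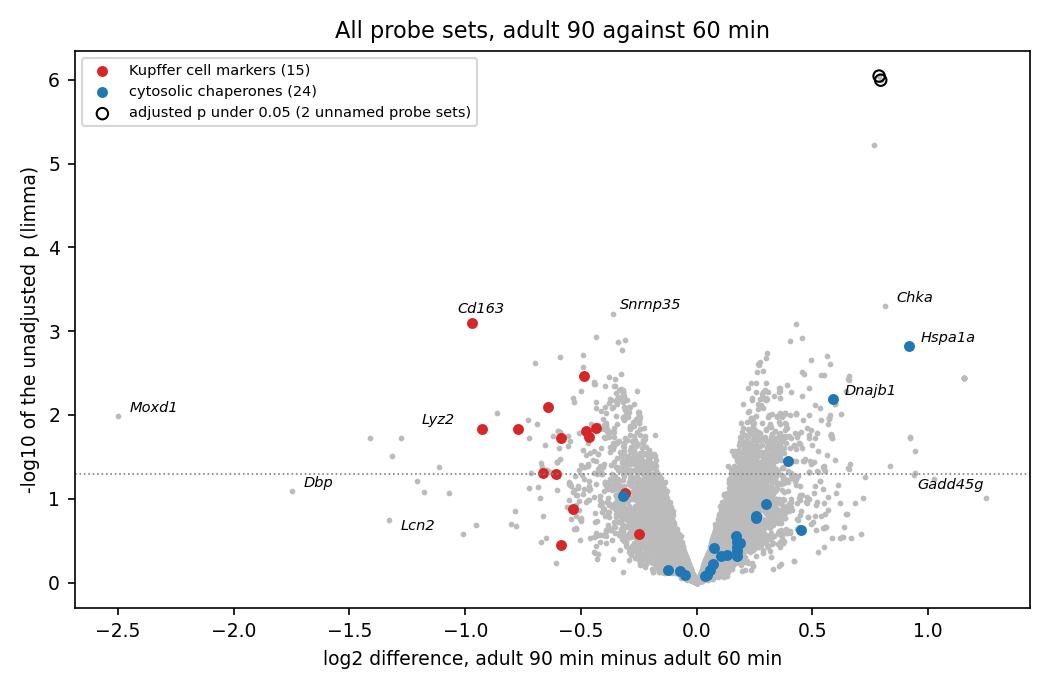
Log2 difference between adult 90 and 60 min (x axis) against -log10 of the unadjusted limma p (y axis) for all 26180 probe sets, with 15 Kupffer cell markers in red, 24 cytosolic chaperone genes in blue and the 2 probe sets that passed ringed. All Kupffer cell markers lie left of 0, Hspa1a and Dnajb1 lie to the right, and the dotted line marks an unadjusted p of 0.05.

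Distances between arrays of different times lay in the range of those within a time. The root mean square log2 distance between arrays was 0.267 on average within 60 min, 0.222 within 90 min and 0.245 between the times. Correlations were taken over all probe sets after the mean log2 value of the adult sham arrays was subtracted from each array. Adult 60 min replicate 1 correlated with the other 5 arrays at 0.51 to 0.669. The highest correlation of adult 90 min replicate 3 was with adult 60 min replicate 3, at 0.806. By distance it lay at 0.224 from that array and at 0.223 from adult 60 min replicate 2. The titles carry a code of 2 parts that the labels do not explain. Its first part was shared by 1 array of each time in one case and by 1 array at 60 min and 2 at 90 min in another, and values within these are given beside Cd163 and Hspa1a. Its second part had 1 value for all 60 min arrays and other values for the 90 min arrays, so that it and the time cannot be told apart. Among the 90 min arrays, replicate 3 had a second part of its own, and its bearing on that array's values was not tested. Adult 60 min replicate 1 had a first part that no 90 min array shared.

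Kupffer cell markers were the list with the lowest median difference among the 47 lists. All 15 measured markers were lower after 90 than after 60 min, against 44.3% of all genes. Their median log2 difference was -0.58, against 0.02 for all genes. At an unadjusted p under 0.05, 10 of the 15 were lower, against 1.35% of all genes, and 7 of 15 had arrays that did not overlap, against 3.21% of all genes. None passed over all probe sets.

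Cd163, the scavenger receptor for haemoglobin bound to haptoglobin, had the lowest p of the list. Its ratios were 0.732, 0.524 and 0.411 after 60 min and 0.201, 0.329 and 0.316 after 90 min, beside 1.07, 0.78 and 1.15 in sham liver. All 90 min arrays lay below all 60 min arrays, and all 6 lay below the sham arrays. The mean ratio was 0.556 ± 0.163 (SD, n = 3) after 60 min and 0.282 ± 0.0704 after 90 min, a log2 difference of -0.97 ± 0.25 (SE; limma, unadjusted p = 0.000797, adjusted p = 1). Between arrays that share the first part of the title code the difference was -1.38 for 1 array against 1 and -0.35 for 1 array against 2. With any 1 of the 6 arrays left out it lay between -1.17 and -0.74.

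Lyz2, the lysozyme of macrophages and other myeloid cells, had ratios of 0.953, 0.597 and 0.488 after 60 min and 0.23, 0.408 and 0.43 after 90 min, a log2 difference of -0.93. Cd5l, a secreted macrophage protein that limits apoptosis, had ratios of 0.878, 0.551 and 0.421 after 60 min and 0.28, 0.411 and 0.354 after 90 min, a difference of -0.77. In both genes the times did not overlap, though the highest 90 min array and the lowest 60 min array lay close together. Vsig4, the complement receptor CRIg, had ratios of 0.813, 0.451 and 0.401 after 60 min and 0.242, 0.441 and 0.345 after 90 min, and the times overlapped. Its log2 difference was -0.67 (limma, unadjusted p = 0.0496).

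The 3 chains of complement C1q, which opsonises dying cells, were at -0.64 for C1qc, -0.61 for C1qb and -0.58 for C1qa, and all 3 overlapped. C1qc had ratios of 1.07, 0.785 and 0.604 after 60 min and 0.388, 0.651 and 0.528 after 90 min. Folr2, a folate receptor of resident macrophages, had ratios of 0.848, 0.826 and 0.7 after 60 min and 0.49, 0.632 and 0.576 after 90 min. Its times did not overlap, with a log2 difference of -0.49 ± 0.15 (SE; limma, unadjusted p = 0.00343). Clec4f, a lectin of mouse Kupffer cells, had ratios of 0.885, 0.766 and 0.607 after 60 min and 0.482, 0.583 and 0.541 after 90 min, a difference of -0.48. Adgre1, the F4/80 antigen, was at -0.47 and Csf1r, the receptor for the growth factor that macrophages depend on, at -0.43, both without overlap. Timd4, a phosphatidylserine receptor, Marco, a scavenger receptor, Mrc1, the mannose receptor, and Slc40a1, the iron exporter ferroportin, were at -0.54, -0.59, -0.31 and -0.25, all with overlap. Marco was spread already in sham liver, at 0.247, 0.231 and 2.52.

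By array, the median log2 ratio of the 15 markers was -0.18, -0.64 and -0.90 after 60 min and -1.42, -0.78 and -0.92 after 90 min. Adult 60 min replicate 1 stood high and adult 90 min replicate 1 stood low, while the other 4 arrays lay between -0.92 and -0.64. The sham arrays lay at -0.21, -0.31 and 0.29, and the 30 min arrays at -0.79, -0.62 and -0.25. Without adult 60 min replicate 1 the median difference was -0.35 and 2 of 15 markers had an unadjusted p under 0.05. That number was also 2 without adult 90 min replicate 1.

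**Figure D2:**
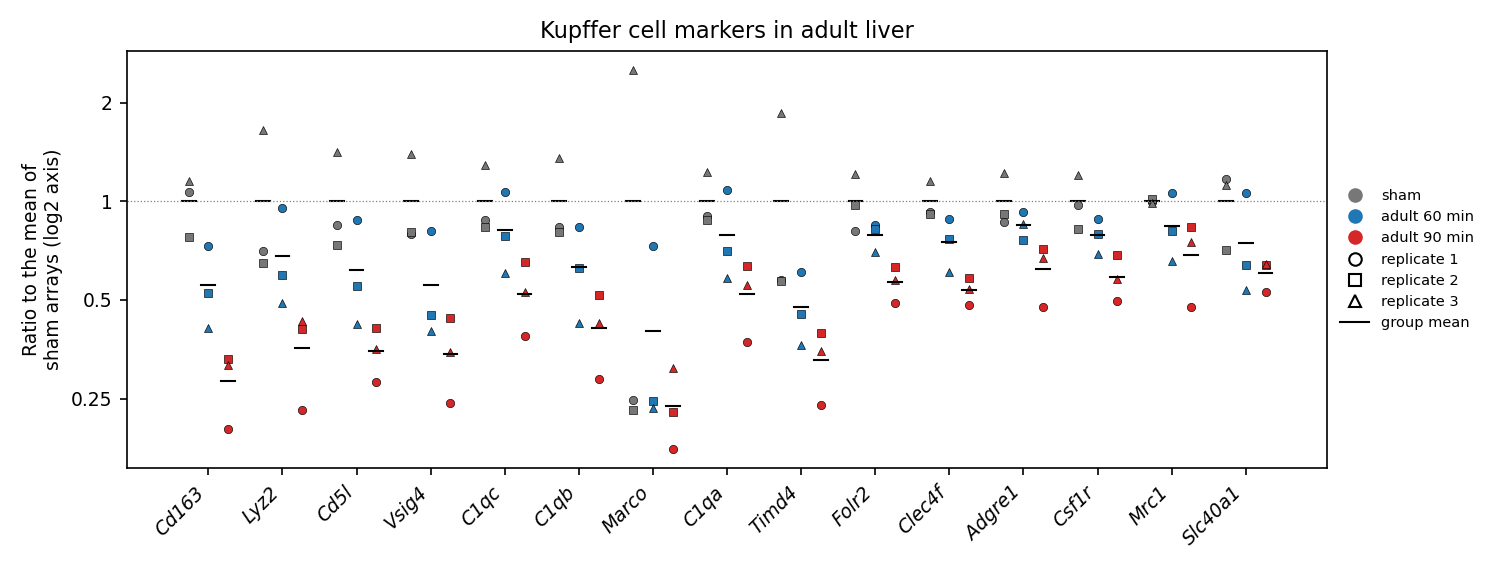
Ratio to the adult sham mean (y axis, log2 scale) of 15 Kupffer cell markers in 3 sham, 3 adult 60 min and 3 adult 90 min arrays, with replicates by symbol and the arithmetic mean of each group as a line. Group means after 90 min lie below those after 60 min for every marker, adult 60 min replicate 1 (circles) is the highest 60 min array for all 15, and adult 90 min replicate 1 is the lowest 90 min array.

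The MHC class II and dendritic cell markers were also lower after 90 min in 12 of 14 cases, against 44.3% of all genes. Their median log2 difference was -0.22, and none passed. Cd74, the invariant chain of MHC class II, had ratios of 1.1, 0.904 and 0.787 after 60 min and 0.48, 0.722 and 0.541 after 90 min. The times did not overlap, but the sham arrays spanned both, at 1.5, 0.94 and 0.556, and the log2 difference of -0.69 had an unadjusted p of 0.0724 in limma. H2-Ab1, a class II beta chain, was at -0.53 without overlap, and H2-Aa and H2-Eb1 were at -0.44 and -0.40 with overlap. Ctss, the protease cathepsin S that cuts the invariant chain, was at -0.66 (limma, unadjusted p = 0.0228) with overlap.

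By median, markers of other cell types differed less between the times. The median log2 difference was 0.01 for 17 T and NK cell markers, -0.08 for 15 neutrophil markers, -0.17 for 9 B and plasma cell markers and -0.08 for 17 hepatic stellate cell markers. Below 0 were 7, 12, 7 and 12 of these in turn, against 44.3% of all genes. Lower without overlap were 3, 3, 2 and 0 in turn, against 3.21% of all genes, and 0 were higher without overlap. Ccl5, a chemokine made by T and NK cells, had ratios of 1.32, 1.54 and 1.23 after 60 min and 0.987, 1.08 and 0.927 after 90 min. The times did not overlap, and the log2 difference was -0.44 ± 0.19 (SE; limma, unadjusted p = 0.0273). Jchain, which joins IgA and IgM of plasma cells, was at -1.41 but overlapped, with ratios of 1.34, 0.711 and 2.15 after 60 min and 0.388, 1.05 and 0.265 after 90 min. The stellate and the B and plasma cell medians were -0.01 with adult 60 min replicate 1 left out and -0.05 with adult 60 min replicate 3 left out in turn. The 18 sinusoidal endothelial markers had a median of -0.09, with 16 below 0, against 44.3% of all genes. Their median by array was -0.66 in adult 90 min replicate 1 against -0.04 and -0.02 in the other 90 min arrays, and without that array the median difference was 0.06. The stellate cell markers were also lowest in adult 90 min replicate 1, at -0.35 against 0.01 and -0.12 in the other 90 min arrays. The part of these endothelial and stellate values in the Kupffer cell result was not tested.

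Cytosolic chaperones stood on the other side. They refold damaged proteins under the control of heat shock factors, and 20 of the 24 measured were higher after 90 min, against 55.7% of all genes, with a median log2 difference of 0.17. At an unadjusted p under 0.05, 3 of 24 were higher, against 1.94% of all genes, and 0 lower, and none passed in limma. The arrays of 2 of 24 were higher without overlap, a share near the 5.53% of all genes. The list median was 0.08 without adult 90 min replicate 1. Against sham, the list median was -0.59 after 60 min and -0.43 after 90 min, so the list lay below sham at both times. In limma, 10 of 24 members passed as lower than sham after 60 min, against 1131 of all 14351 genes. After 90 min 3 passed as lower and 1 as higher, against 721 and 121 of all 14351 genes in turn.

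Hspa1a encodes the inducible Hsp70. Its ratios were 1.26, 1.38 and 0.729 after 60 min and 2.47, 1.69 and 2.06 after 90 min, beside 0.915, 1.06 and 1.02 in sham liver. All 90 min arrays lay above all sham and 60 min arrays. The mean ratio was 1.12 ± 0.348 (SD, n = 3) after 60 min and 2.07 ± 0.393 after 90 min, a log2 difference of 0.92 ± 0.25 (SE; limma, unadjusted p = 0.00151, adjusted p = 1). It was 0.84 and 1.35 within the 2 shared title codes, and 0.63 to 1.10 with any 1 of the 6 arrays left out. No probe set stood for the near-identical Hspa1b, and whether the Hspa1a probes also read it is not known here.

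Dnajb1, the Hsp40 partner that stimulates the ATPase of Hsp70, had ratios of 0.71, 0.712 and 0.559 after 60 min and 1.07, 1.14 and 0.788 after 90 min. The times did not overlap, and the log2 difference was 0.59 ± 0.19 (SE; limma, unadjusted p = 0.00646). Dnajb4, another Hsp40, was at 0.40 on one probe set and 0.33 on a second, with ratios of 0.649, 0.824 and 0.655 after 60 min and 1.04, 1.02 and 0.754 after 90 min on the first. Hsph1, the Hsp110 exchange factor of Hsp70, was at 0.45 with ratios of 0.3, 0.729 and 0.632 after 60 min and 0.811, 0.72 and 0.604 after 90 min, and the times overlapped, with adult 60 min replicate 1 far below the other arrays. Without that array the difference was 0.06. The Hsp90 genes did not follow: Hsp90aa1 was at -0.12 and Hsp90ab1 at -0.05. Hsp90aa1 had ratios of 0.332, 0.437 and 0.528 after 60 min and 0.391, 0.433 and 0.353 after 90 min, all of them under 0.6 of the sham mean.

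The promoters that follow are those of the 3 chaperone genes with the largest differences over all 6 arrays. Hsph1 did not hold that place without adult 60 min replicate 1. Heat shock factors bind repeats of GAA and its reverse complement, TTC, which is why these promoters are shown. They are the 250 bases before the RefSeq start on GRCm38.p6, 5′ to 3′ on the gene's strand, and capitals mark GAANNTTC or TTCNNGAA, each of which reads the same on both strands.
Hspa1a, chr17:34972157-34972406, minus strand: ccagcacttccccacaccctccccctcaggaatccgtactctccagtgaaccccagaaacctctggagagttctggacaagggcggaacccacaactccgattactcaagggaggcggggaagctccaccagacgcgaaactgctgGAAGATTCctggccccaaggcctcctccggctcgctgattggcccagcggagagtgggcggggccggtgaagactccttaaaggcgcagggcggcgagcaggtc
Dnajb1, chr8:83607925-83608174, plus strand: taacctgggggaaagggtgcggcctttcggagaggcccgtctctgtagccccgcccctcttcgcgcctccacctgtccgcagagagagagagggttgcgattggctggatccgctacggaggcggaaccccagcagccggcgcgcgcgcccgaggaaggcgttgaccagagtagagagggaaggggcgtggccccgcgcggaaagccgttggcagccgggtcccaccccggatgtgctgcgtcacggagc
Hsph1, chr5:149636337-149636586, minus strand: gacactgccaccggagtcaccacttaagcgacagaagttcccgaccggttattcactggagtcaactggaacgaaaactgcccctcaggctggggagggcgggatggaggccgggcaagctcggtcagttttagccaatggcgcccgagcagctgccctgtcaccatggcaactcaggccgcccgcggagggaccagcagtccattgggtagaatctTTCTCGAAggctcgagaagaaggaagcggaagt
The Hspa1a promoter holds GAAGATTC with its first base at -104 and the Hsph1 promoter TTCTCGAA at -33 from the start. Neither of the 2 listed Dnajb1 promoters holds either word, which says only that these letters are not in this window. Of the 20 chaperone genes with a listed promoter, 8 had a match in any of them, as had 14.5% of the 27025 genes in the table. Of all 32851 listed promoters, each counted once, 12.8% had a match.

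The 21 ER chaperones and unfolded protein response genes had a median of 0.18 (0.10 without adult 60 min replicate 3). Of these, 17 were above 0, against 55.7% of all genes, and none was at an unadjusted p under 0.05. Their median against sham was -0.61 after 60 min and -0.45 after 90 min. Hspa5, the ER Hsp70 known as BiP, had ratios of 0.374, 0.581 and 0.431 after 60 min and 0.679, 0.65 and 0.446 after 90 min, a log2 difference of 0.36 with overlap. Dnajb9 and Manf, both targets of the unfolded protein response, were at 0.42 and 0.40 with overlap. In all 3 genes adult 90 min replicate 3 was the lowest 90 min array and lay within the 60 min range. The 10 mitochondrial chaperones and proteases had a median of 0.01.

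**Figure D3:**
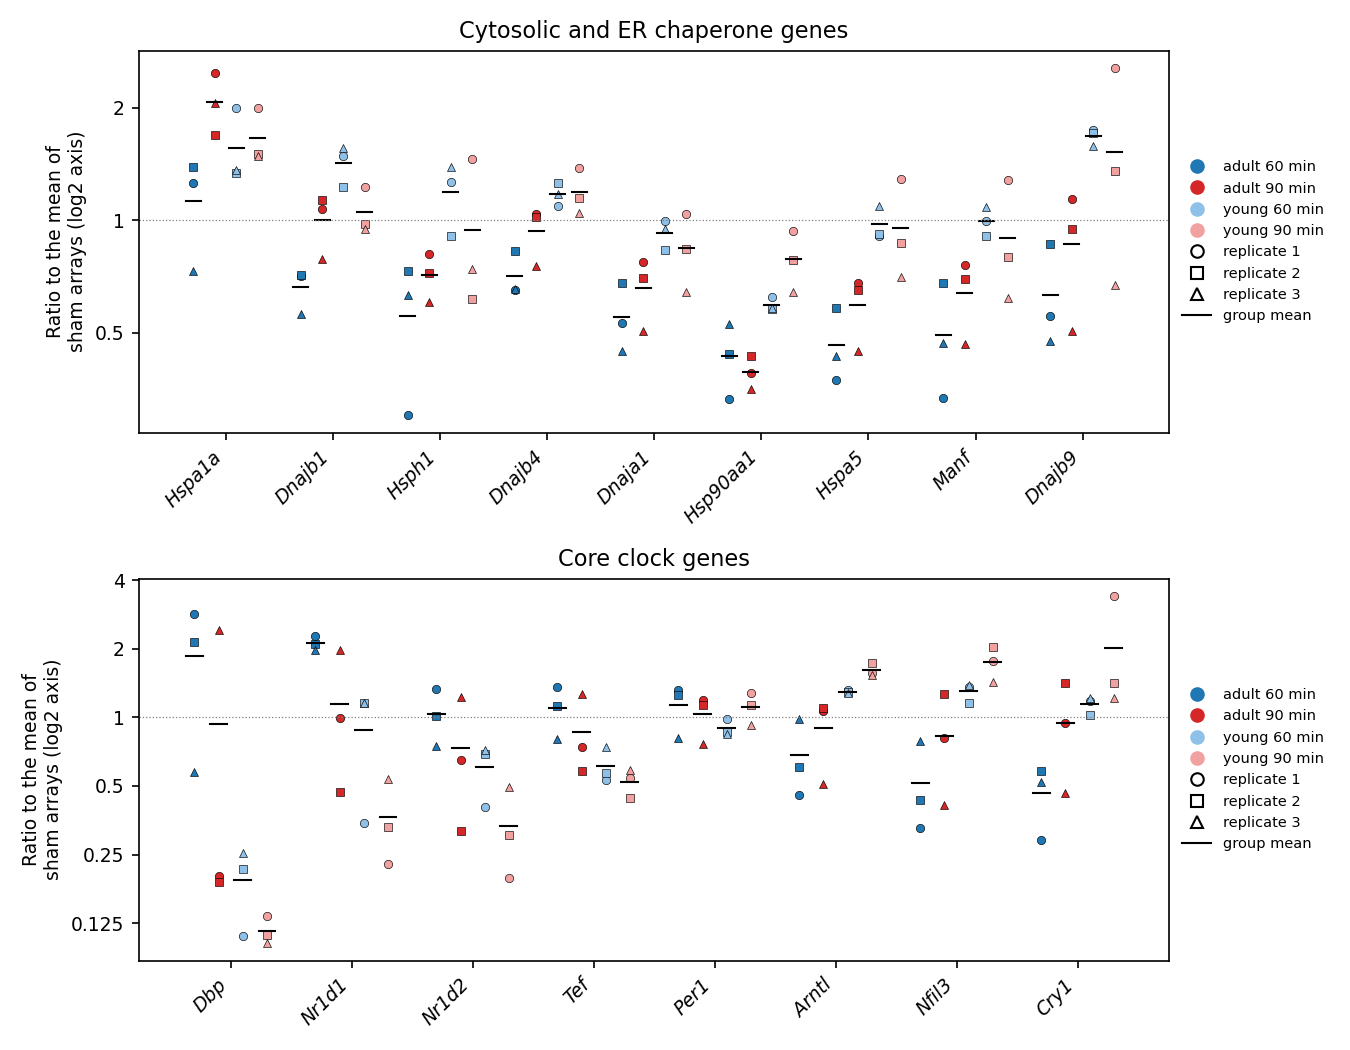
Ratio to the sham mean of the same age (y axes, log2 scale) of 9 chaperone genes (top) and 8 clock genes (bottom) in 3 arrays each of adult and young liver after 60 and 90 min, with lines at the arithmetic group means. Hspa1a and Dnajb1 are the chaperone genes whose adult times do not overlap, and adult 90 min replicate 3 (red triangles) lies apart from the other 2 adult 90 min arrays in Dbp, Nr1d1, Nr1d2, Tef, Arntl, Nfil3 and Cry1.

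Several clock genes had large differences with wide spread. These genes cycle over the day in liver through a loop in which Arntl and Clock drive their own repressors. The 21 measured had a median of -0.04. At an unadjusted p under 0.05, 1 was higher and 1 lower, against 1.94% and 1.35% of all genes in turn. Dbp, an output factor driven by that loop, had ratios of 2.84, 2.14 and 0.574 after 60 min and 0.201, 0.189 and 2.41 after 90 min. The log2 difference was -1.75 ± 0.96 (SE), and the third array of each time lay on the other time's side. Sham liver was as wide, at 1.61, 0.146 and 1.24.

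Nr1d1, the repressor Rev-erb alpha, had ratios of 2.27, 2.09 and 1.98 after 60 min and 0.993, 0.47 and 1.98 after 90 min, a log2 difference of -1.11 ± 0.51 (SE; limma, unadjusted p = 0.0422). The 60 min arrays lay close together and adult 90 min replicate 3 lay with them. Cry1, a repressor whose gene Nr1d1 holds down, was at 0.94 ± 0.40 (SE; limma, unadjusted p = 0.0273), with ratios of 0.288, 0.584 and 0.518 after 60 min and 0.949, 1.41 and 0.464 after 90 min. Nfil3 was at 0.65, Arntl at 0.38, Nr1d2 at -0.67 and Tef at -0.39, all with overlap, and in each the same array stood apart. Clock, the partner of Arntl, was at 0.30 without overlap. Per1, Per2 and Per3 were at -0.13, -0.01 and -0.05. The time of day at which tissue was taken is not given in the sources used here, and its part in these values was not tested.

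Genes of lipid metabolism were higher after 90 than after 60 min in most cases, by small amounts, and the list medians lay below sham at both times. So were 16 of the 19 hepatocyte markers and 34 of the 40 oxidative phosphorylation genes higher after 90 min. The direction is thus not particular to lipid genes. Cholesterol synthesis genes had the highest median of the 47 lists, 0.21, with 20 of 22 above 0, against 55.7% of all genes, and none passing. It was 0.12 with adult 60 min replicate 3 left out and 0.36 with adult 90 min replicate 3 left out. Against sham, the list median was -0.56 after 60 min and -0.37 after 90 min. Mvd, which makes isopentenyl diphosphate, had ratios of 0.46, 0.766 and 0.683 after 60 min and 0.945, 1.14 and 0.645 after 90 min, a log2 difference of 0.51 with overlap.

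Fatty acid synthesis genes had a median of 0.11, with 13 of 15 above 0, against 55.7% of all genes. It was 0.06 with adult 90 min replicate 1 left out and 0.27 with adult 90 min replicate 3 left out. Against sham, the median was -0.65 after 60 min and -0.27 after 90 min. Fasn, the fatty acid synthase, had ratios of 0.53, 0.787 and 0.541 after 60 min and 1.06, 1.03 and 0.644 after 90 min, a log2 difference of 0.55 ± 0.25 (SE; limma, unadjusted p = 0.0421) with overlap. Fatty acid oxidation genes and PPAR alpha targets had a median of 0.18, with 28 of 30 above 0, against 55.7% of all genes. The arrays of 4 were higher without overlap, against 5.53% of all genes. Against sham, the median was -0.40 after 60 min and -0.20 after 90 min. Cyp4a10, a fatty acid omega-hydroxylase, had ratios of 0.648, 0.654 and 0.596 after 60 min and 0.853, 1.01 and 0.919 after 90 min. These did not overlap, but the sham arrays, at 1.12, 1.39 and 0.495, spanned both times, and the unadjusted p of the 0.55 difference was 0.112 in limma. Acaa1b, a peroxisomal thiolase, was at 0.41 with overlap.

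Cytochrome P450 genes of families 1 to 4 had a median of 0.15, with 26 of 31 above 0, against 55.7% of all genes, 3 higher at an unadjusted p under 0.05, against 1.94%, and none passing. It was 0.07 with adult 60 min replicate 3 left out and 0.27 with adult 90 min replicate 3 left out. Against sham, the list median was -0.355 after 60 min and -0.136 after 90 min. Cyp1a2, a pericentral enzyme of drug oxidation, had ratios of 0.696, 0.725 and 0.791 after 60 min and 0.896, 0.901 and 0.927 after 90 min. The times did not overlap and the spread within each was small, with a log2 difference of 0.30 ± 0.09 (SE; limma, unadjusted p = 0.00418). Cyp2b10, induced through the receptor CAR, had ratios of 0.0738, 0.0702 and 0.0662 after 60 min and 0.258, 0.0736 and 0.0379 after 90 min, beside 1.75, 0.25 and 1 in sham liver. Cyp7a1, the rate-limiting enzyme of bile acid synthesis, was at 0.02.

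Gclc, the catalytic subunit of the enzyme that starts glutathione synthesis, had ratios of 0.716, 0.729 and 0.645 after 60 min and 1.35, 1.08 and 0.892 after 90 min. All 90 min arrays lay above all 60 min arrays, with a log2 difference of 0.65 ± 0.21 (SE; limma, unadjusted p = 0.00515). Its partner subunit Gclm was at 0.22 ± 0.10 (SE; limma, unadjusted p = 0.0417) with overlap. Hmox1, haem oxygenase, another target of the oxidant-sensing factor Nrf2, was at -0.38, from 0.832, 0.797 and 0.725 to 0.51, 0.627 and 0.69 without overlap. The 25 antioxidant and Nrf2 target genes had a median of 0.11 and the 17 glutathione S-transferases one of 0.13, and without adult 60 min replicate 3 these were 0.02 and 0.01.

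Among glucose and fasting genes, Igfbp1, an insulin-repressed secreted protein, had ratios of 0.634, 0.487 and 0.407 after 60 min and 1.07, 1.54 and 0.317 after 90 min. Ppp1r3b, which targets a phosphatase to glycogen, had ratios of 0.452, 0.49 and 0.639 after 60 min and 1.31, 1.09 and 0.394 after 90 min. G6pc, glucose-6-phosphatase, had ratios of 0.817, 0.9 and 1.02 after 60 min and 1.61, 2.04 and 0.719 after 90 min. In all 3 genes adult 90 min replicates 1 and 2 lay above every 60 min array and replicate 3 lay below every one. The log2 differences were 0.69, 0.66 and 0.56, and Pck1, the gluconeogenic carboxykinase, was at -0.11.

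**Figure D4:**
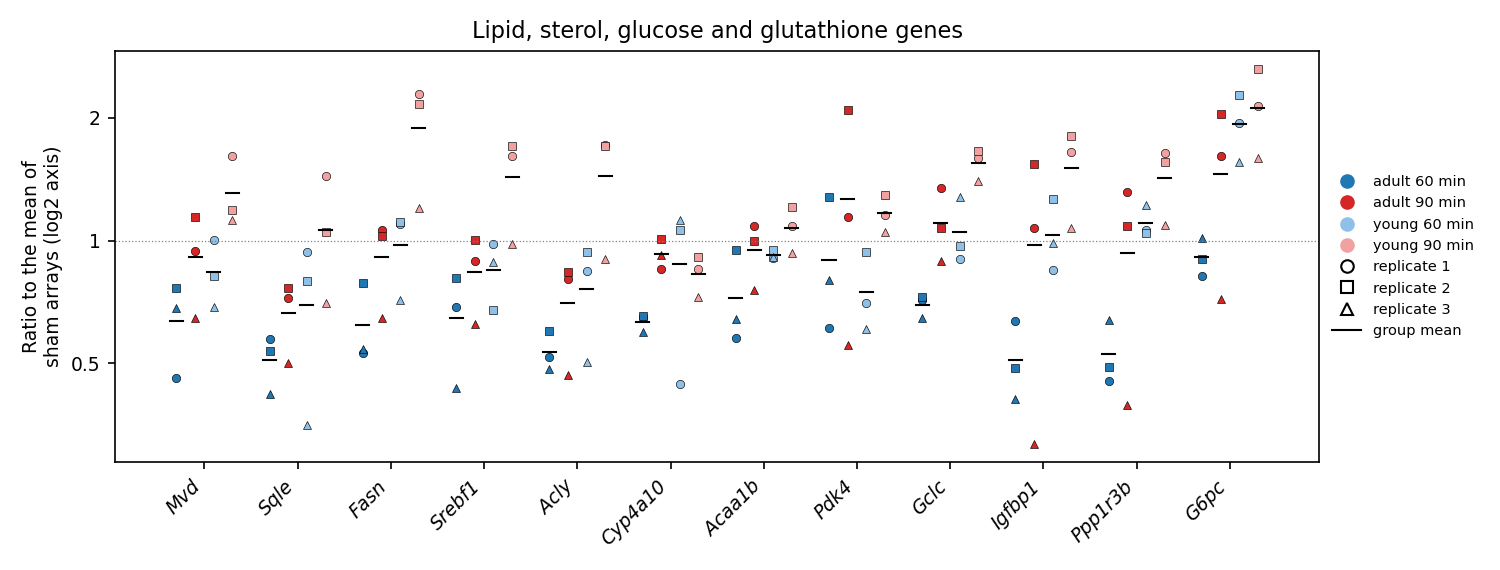
Ratio to the sham mean of the same age (y axis, log2 scale) of 12 genes of sterol, fatty acid, glutathione and glucose metabolism in 3 arrays each of adult and young liver after 60 and 90 min, with lines at the arithmetic group means. Cyp4a10 and Gclc do not overlap between the adult times, while adult 90 min replicate 3 (red triangles) lies in or below the 60 min range in Igfbp1, Ppp1r3b and G6pc.

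Outside the lists, the genes with the lowest p among those without overlap had modest differences. Chka, choline kinase, which starts phosphatidylcholine synthesis, had ratios of 0.553, 0.578 and 0.728 after 60 min and 1.12, 1.35 and 0.838 after 90 min. The log2 difference of 0.81 ± 0.20 (SE; limma, unadjusted p = 0.0005) had the lowest p of any gene with a symbol that was higher. Car5a, a mitochondrial carbonic anhydrase that supplies the urea cycle, was at 0.46, the splicing regulator Esrp1 at 0.40 and the basement membrane protein Nid2 at 0.56. Daam1, a formin that assembles actin, was at 0.30 on both of its probe sets.

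Snrnp35, a protein of the minor spliceosome, had the lowest p among those that were lower, with ratios of 1.02, 1.21 and 1.33 after 60 min and 0.857, 0.916 and 0.982 after 90 min. Its log2 difference was -0.36 ± 0.09 (SE; limma, unadjusted p = 0.000625). Coro1a, an actin regulator of leukocytes, had ratios of 1.07, 0.962 and 0.939 after 60 min and 0.581, 0.764 and 0.641 after 90 min, a log2 difference of -0.59. Cd37, a leukocyte tetraspanin, was at -0.43, the ubiquitin ligase Ubr1 at -0.34 and the vesicular transporter Slc32a1 at -0.31.

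Early response and inflammatory genes showed no common direction. The 26 immediate early factors had a median of 0.00, with 13 above and 13 below 0 and 0 at an unadjusted p under 0.05. Jun had ratios of 4.38, 2.29 and 1.04 after 60 min and 1.02, 2.33 and 1.54 after 90 min, and Fos, its AP-1 partner, 4.34, 1.53 and 0.452 against 0.838, 1.66 and 2.17. Either gene spread more within a time than between the times. Atf3, a stress-induced repressor, was at 0.39, from 2.05, 2.4 and 1.09 to 1.2, 2.56 and 3.92. Egr1 was at -0.07.

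Among 33 NF-kB feedback genes, cytokines and chemokines the median was 0.03. Tnfaip3, the A20 protein that shuts off NF-kB, had ratios of 0.885, 0.698 and 0.641 after 60 min and 0.759, 1.06 and 1.61 after 90 min, a log2 difference of 0.57 ± 0.21 (SE; limma, unadjusted p = 0.0127) with overlap. Cxcl10, an interferon-induced chemokine, had ratios of 0.69, 1.08 and 0.801 after 60 min and 0.71, 1.84 and 3.21 after 90 min, and Cxcl2, which attracts neutrophils, 1.13, 0.943 and 1.01 against 0.939, 1.33 and 2.3. In these 3 genes adult 90 min replicate 3 was the highest array.

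The 22 acute phase proteins had a median of -0.13, which turned to 0.20 without adult 60 min replicate 1. Lcn2, lipocalin 2, had ratios of 1.36, 0.109 and 0.0921 after 60 min and 0.0711, 0.105 and 0.116 after 90 min, and Saa2, serum amyloid A, 0.457, 0.103 and 0.0784 against 0.0804, 0.0897 and 0.0701. In both, that array lay above the other 5. It was also the highest for Mt2, a metallothionein, at 1.6, 0.0515 and 0.0526 after 60 min and 0.0521, 0.0995 and 0.236 after 90 min.

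Lists of the basal machinery lay at like levels after both times. The 40 proteasome subunits had a median of 0.04 between the times, with median log2 values against sham of -0.56 after 60 min and -0.54 after 90 min. Psme4, a proteasome activator, was the 1 subunit that was lower at an unadjusted p under 0.05, at -0.26 ± 0.08 (SE; limma, unadjusted p = 0.00515), and Psma1, a subunit of the core, was at 0.10. The 40 oxidative phosphorylation genes had a median of 0.08, with 34 above 0, against 55.7% of all genes. Ndufa10, a complex I subunit, was at 0.32 (limma, unadjusted p = 0.0171) without overlap. Without adult 60 min replicate 3 the median of the oxidative phosphorylation genes was -0.07 and that of the proteasome subunits -0.08. The medians were 0.07 for 15 cytosolic ribosomal proteins, 0.05 for 25 translation factors, 0.02 for 24 hypoxia-inducible genes, 0.01 for 30 cell cycle genes and -0.01 for 24 Bcl2 family and cell death genes. Without adult 60 min replicate 3 the ribosomal median was -0.14 and the translation factor median -0.04, and without adult 60 min replicate 1 the ribosomal median was 0.23. The hypoxia-inducible, cell cycle, Bcl2 family, immediate early, clock, mitochondrial chaperone and T and NK cell medians also changed sign with 1 of the 6 arrays left out, within 0.1 of 0. Centring the arrays turned the sign of the medians of the hypoxia-inducible, cell cycle and immediate early genes, the mitochondrial chaperones and the T and NK and cholangiocyte markers, which were within 0.02 of 0 either way. The medians of the Kupffer cell markers, chaperones, cholesterol, fatty acid and P450 genes moved in size but kept their sign with centring, with quantile normalization and with any 1 of the 6 arrays left out, at -0.48, 0.09, 0.14, 0.05, 0.10 and 0.08 with quantile normalization for Kupffer cell markers, cytosolic chaperones, cholesterol synthesis, fatty acid synthesis, fatty acid oxidation and P450 genes in turn.

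**Figure D5:**
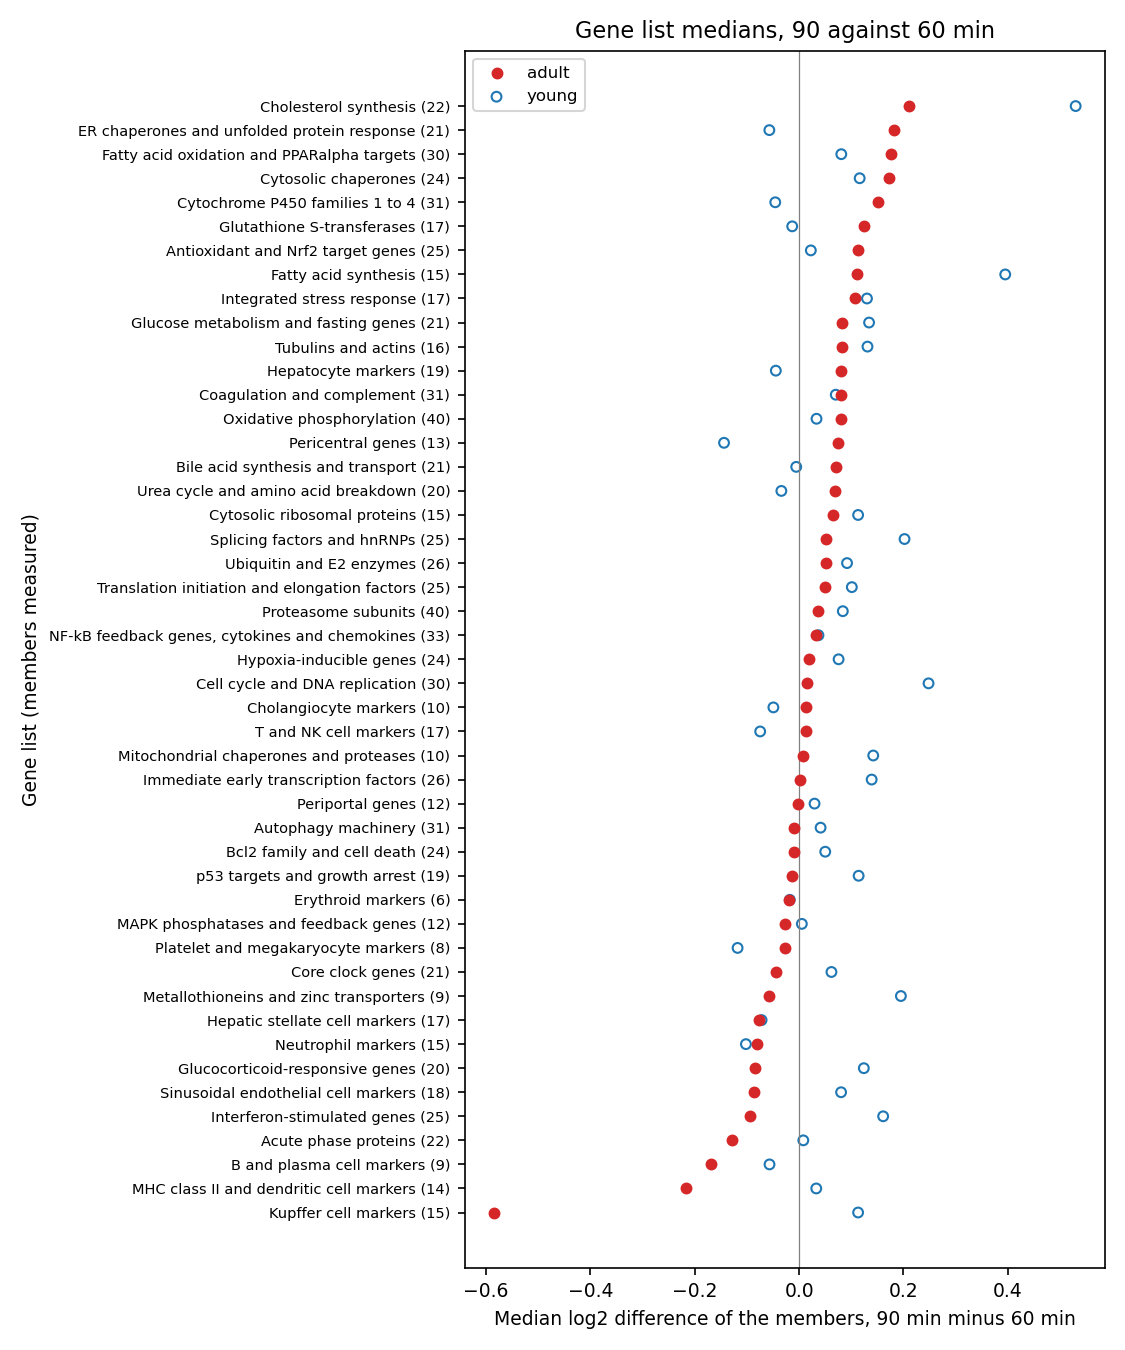
Median log2 difference between 90 and 60 min (x axis) of the measured members of 47 gene lists (y axis, with the number measured) in adult (red) and young liver (open blue). The adult Kupffer cell markers lie at -0.58, and the other adult medians lie between -0.22 and 0.21, against 0.02 for all genes.

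The same contrast in young liver shares no array with the adult one. There 0 of 26180 probe sets passed, with a lowest adjusted p of 0.127 in limma, and 2511 (9.59%) had an unadjusted p under 0.05. The test of the difference between the ages called 0 probe sets in limma, with a lowest adjusted p of 0.925, and 1070 (4.09%) had an unadjusted p under 0.05, so no gene is shown to differ by age over all probe sets. The median of the 15 Kupffer cell markers in young liver was 0.11, with 14 above 0, as were 7057 of all 14351 genes. The difference between the ages had an unadjusted p under 0.05 in limma for 9 of the 15, each lower in adults, against 1.42% of all genes. It uses the same adult arrays, so it is not separate from the adult result. The adult count of 10 markers fell to 2 without adult 60 min replicate 1, and to 2 without adult 90 min replicate 1. The part of these arrays in the 9 was not tested. For Cd163 the young difference was -0.08 and the age difference -0.89 (limma, unadjusted p = 0.019, adjusted p = 1). For Coro1a they were 0.36 and -0.95 (limma, unadjusted p = 0.000642).

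Dnajb1 was at -0.44 in young liver, and its age difference of 1.03 had an unadjusted p of 0.00121 in limma. Hspa1a was at 0.10 in young liver, with an age difference of 0.82 (limma, unadjusted p = 0.032). These were the only 2 of the 24 cytosolic chaperones with an age difference at an unadjusted p under 0.05. Over all genes, 389 of 14351 were higher in adults at that p and 204 lower. The chaperone list as a whole had a young median of 0.12, with 16 of 24 above 0, and a median age difference of -0.000125. Cholesterol and fatty acid synthesis genes had higher medians in young liver, 0.53 and 0.40, with 8 of 22 and 5 of 15 higher at an unadjusted p under 0.05 against 4.75% of all genes. Fasn was at 0.93 in young and 0.55 in adult liver, with an age difference of -0.38 (limma, unadjusted p = 0.301). Chka was at 0.60, Gclc at 0.58 and Nr1d1 at -1.17 in young liver, and the age differences of these 3 genes were 0.21, 0.07 and 0.05.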

How the data were processed

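Liver RNA of 24 arrays was labelled by the one-cycle 3' protocol, per the labels' protocols. The deposited ratios were made by the authors with RMA, per the submitters' processing notes, with its version, and any scaling between arrays beyond the sham division, not given in the sources used here. In the deposited table the mean of the 3 sham ratios of each age is 1 for every probe set, within 2e-07. The number of arrays limits the precision.

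Groups came from the sample titles. Linear models on the log2 scale had 8 group means over all 24 arrays (limma 3.58.1 in R 4.3.3; 16 residual and 4.65 prior degrees of freedom), with two-sided tests and Benjamini-Hochberg adjustment over all probe sets. A probe set passed at an adjusted p under 0.05. The age difference was the interaction of age and time. RefSeq accessions gave 15228 probe sets a symbol, and 1 probe set per gene, chosen by accession type and number, stood for each of 14351 genes. No filter on dim probe sets was possible without brightness.

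The comparison, the 47 gene lists and the genes were chosen with earlier results of these data known. Genes were named by rule: the 10 largest passing differences in each direction without overlap, filled up to 6 by lowest p when fewer passed, in each list the 4 members farthest from 0, and a set of ischemia and liver genes. The rule named 200 genes, and the values of many of them are left out here. Other list members named were chosen after their values were seen. No list test was run. Alternatives were 1 probe set per gene, quantile normalization, median centring, fewer arrays in the fit, a block for the title code, weights on arrays, a robust prior, ratios without log, and each array left out in turn. Leaving out adult 60 min replicate 1 and adult 90 min replicate 3 together was added after the data were seen. Promoter sequences are RefSeq's on GRCm38.p6.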

Additional observations from a re-analysis of the deposited data

How the results depend on the processing

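The 2 probe sets that passed between adult 90 and 60 min became 0 with 1 probe set per gene, with quantile normalization, in fits to the adult arrays or the 6 arrays alone, with a block for the title code's first part and with adult 60 min replicate 1 and adult 90 min replicate 3 both left out. Leaving out each array in turn gave 0 to 3. The 915 probe sets with an unadjusted p under 0.05 became 155 with quantile normalization and 1656 with array weights, and 481 to 1302 with 1 array left out. For the age difference, the 0 probe sets that passed stayed 0 in every setting run, and the 1070 with an unadjusted p under 0.05 became 464 with quantile normalization, 1879 with array weights and 687 to 1981 with 1 array left out. The 10 Kupffer cell markers that were lower at an unadjusted p under 0.05 became 4 on ratios without log and 2 with both arrays left out, and 2 to 12 with 1 array left out. No list member passed in any setting, also with each array left out, where the count was 0. The causes of these shifts were not tested. The 42 named genes with an unadjusted p under 0.05 kept their sign in all 672 values over 16 settings. They were picked by p in the same arrays that the settings refit, so this is no independent support. Of the 3200 values of all 200 named genes, 71 had the other sign. Replicate numbers follow the order of deposit and pair no arrays across times, so the title code gave the block that was run. With 3 arrays a group, differences under about 0.25 log2 units, the median width of the 95% interval to either side, are not resolved for the median probe set.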

Other observations

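Leukocyte genes outside the marker lists were looked up after the Kupffer cell values had been seen, so their choice is no independent support. Between adult 90 and 60 min, the pan-leukocyte phosphatase Ptprc (CD45) was at a log2 difference of -0.67, the surface glycoprotein Cd52 at -0.73 and the tetraspanin Cd53 at -0.73, all with overlap between the times. Cybb, the catalytic subunit of the phagocyte oxidase, was at -0.67, the macrophage membrane protein Ms4a6b at -0.70 and the adhesion receptor Adgre4 at -0.72, each without overlap. In young liver the same 6 differences, for Ptprc, Cd52, Cd53, Cybb, Ms4a6b and Adgre4, were 0.48, 0.27, 0.06, 0.07, 0.11 and 0.32. None passed in adults, with an adjusted p of 1 in limma.

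The largest difference of all probe sets, also noticed after its value was seen, was that of Moxd1, a relative of dopamine beta-hydroxylase, at -2.50 ± 0.89 (SE; limma, unadjusted p = 0.0104, adjusted p = 1) without overlap between the adult times and at -0.05 in young liver.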
